A study of Mus musculus with 12 samples.

Results

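The proteasome genes of cultured mouse microglia were taken as the protein-coding genes whose symbol begins with Psma to Psmg followed by a digit, 50 of the 52636 gene identifiers in the deposited count table. The genes were chosen by symbol alone, but the family was selected with its log2 fold changes in these libraries known, above all those of full-length NfL against vehicle, so counts over the family describe it and are not independent evidence of its direction. Microglia, the resident macrophages of the brain, were grown from wild-type C57BL/6 pups of postnatal day 1 to 2 as mixed glial cultures for 10 to 13 days, shaken off and plated with the growth factor CSF1. All 3 groups shared these conditions and differed in a 24 h treatment, which was vehicle, 5 µg full-length neurofilament light chain (NfL, a structural protein of axons) or 5 µg coiled-coil NfL, with 4 libraries each. Replicates 1 to 4 of each group belong to batches 1 to 4, so that each batch held 1 library of every group. The labels do not tie the batches to separate cultures or animals, so the p-values reflect only the spread among these libraries, which may be technical.

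The proteasome is the barrel-shaped protease that degrades proteins tagged with ubiquitin. Rings of alpha subunits (Psma) gate the barrel, rings of beta subunits (Psmb) line it, and a cap of ATPases (Psmc) and non-ATPases (Psmd) binds, unfolds and feeds the substrate. In immune cells and after interferon, the catalytic subunits Psmb6, Psmb7 and Psmb5 are replaced in new particles by Psmb9, Psmb10 and Psmb8, and the activator Psme1 and Psme2 can sit on the barrel in place of the cap. That form, the immunoproteasome, cuts peptides for class I presentation.

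By role, the family held 7 alpha ring genes, 4 structural beta genes (Psmb1 to Psmb4), 3 constitutive catalytic genes (Psmb5, Psmb6 and Psmb7), 3 inducible catalytic genes (Psmb8, Psmb9 and Psmb10), 2 inducible activators (Psme1 and Psme2), 6 ATPases, 14 non-ATPases, 3 other activators or inhibitors (Psme3, Psme4 and Psmf1) and 4 assembly chaperones (Psmg1 to Psmg4). A further 4 genes met the name rule and were kept outside these classes: the testis subunit Psma8, the thymus subunit Psmb11, the recombination factor Psmc3ip and Psme2b, a near copy of Psme2. Psmb11 had 0 counts in every library, and the other 49 genes, spread over 16 chromosomes with Psmb11 included, passed the filter on low counts and were tested among 14687 genes.

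Total counts were 20162427 to 31048044 per library. The 9 microglial markers Csf1r, Cx3cr1, P2ry12, Tmem119, Aif1, Itgam, C1qa, Trem2 and Ptprc were all detected and summed to 8424 to 11054 CPM (read counts scaled to a common library total with TMM factors) in vehicle, 8248 to 10041 in the full-length libraries and 9473 to 10656 in the coiled-coil libraries. Of these, Aif1 and Ptprc rose and Csf1r, Cx3cr1 and Trem2 fell with full-length NfL (edgeR adjusted p under 0.05), against 14% of all tested genes higher and 10.9% lower. Summed markers of neurons were 16.9 to 55.4, 8.00 to 27.0 and 13.3 to 42.2 CPM in vehicle, full-length and coiled-coil libraries, those of astrocytes 24.3 to 44.0, 22.4 to 33.0 and 22.6 to 41.8, and those of fibroblasts 5.14 to 20.6, 2.51 to 14.1 and 3.02 to 14.3. The fibroblast sum joined genes that varied in opposite ways. Pdgfra was at 3.52, 20.2, 0.482 and 18.2 CPM in vehicle replicates 1 to 4, and Col1a1 at 0.651, 0.0838, 1.89 and 0.0432. Its range is thus no measure of fibroblast content. With full-length NfL, 1 of 6 neuronal, 1 of 7 astrocyte and none of 4 tested fibroblast markers fell, against 10.9% of all tested genes, and with the batch as a block 6, 5 and 1 did, against 22.4%. Oligodendrocyte markers summed to 208 to 263, 231 to 255 and 224 to 269 CPM, with 1 of 7 tested genes higher and none lower with full-length NfL, and 2 higher and 3 lower with the block. Over all tested genes 14% were higher and 10.9% lower, and with the block 21.4% and 22.4%. The T and NK cell markers Cd3d, Cd3e, Nkg7 and Ncr1 had 0 counts in all 12 libraries. The part of these other cells in the changes below was not tested, and fewer cells of a type and less RNA per cell cannot be told apart in bulk RNA.

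Upstream of the genes, elements bound by known regulators of the proteasome were looked for. For 42 of the 50 genes, RefSeq (GRCm38.p6) gave the 250 bases before the gene start, which were searched on both strands. TGACNNNGC, the core of the antioxidant response element bound by Nrf1 and Nrf2, the products of Nfe2l1 and Nfe2l2, was found before 5 genes, or 11.9%, against 10.1% of 27025 promoters. The 5 copies are shown because this element is the textbook link between Nrf1 and subunit genes. Capitals mark the match, and a copy on the other strand reads as its reverse complement. All 5 lie outside the exons of GENCODE M21. The bases searched for Psmd9, however, lie within the GENCODE M21 span of that gene, 123169413 to 123250131 on the plus strand. They are thus downstream of the start of the gene model whose reads were counted by symbol here.
Psmb5 (chr14:54618024-54618052, minus strand): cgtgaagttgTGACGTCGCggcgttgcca
Psmb6 (chr11:70525338-70525356, plus strand): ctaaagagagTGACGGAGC
Psmc6 (chr14:45329587-45329615, plus strand): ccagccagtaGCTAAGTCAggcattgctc
Psmd12 (chr11:107479278-107479299, plus strand): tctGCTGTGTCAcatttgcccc
Psmd9 (chr5:123228149-123228177, plus strand): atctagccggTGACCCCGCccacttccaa

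None of the 5 inducible genes held that core. The core of the interferon-stimulated response element (GAAA, any 2 bases, GAAA) stood before Psmb3, Psmd4 and Psmd9, or 7.14% of the family against 3.04% of all promoters, and before 0 of the 5 inducible genes, 1 of which held it when the 50 bases after the start were included. TTCNNNGAA, the gamma-activated site of interferon signalling, stood before Psmb8 and Psmg1, or 4.76% against 7.18%. CCAAT stood before 15 genes, or 35.7% against 34.5%. The gamma-activated site of Psmb8 is shown as the single match to either interferon element in the 250 bases before the inducible genes. It lies 97 bases before the RefSeq start, within an exon of GENCODE M21.
Psmb8 (chr17:34198088-34198116, plus strand): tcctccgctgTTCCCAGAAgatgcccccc

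Psmb9 and the peptide transporter gene Tap1 start back to back on chromosome 17. In RefSeq (GRCm38.p6) the start of Psmb9 on the minus strand is at 34187330 and that of Tap1 on the plus strand at 34187556, with 225 bases between them, while the GENCODE M21 model of Psmb9 reaches to 34187764, past the start of Tap1. A match is a description of letters in this window and not a binding site.

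Full-length NfL was compared with vehicle to ask how exogenous NfL acts on microglia. Genes of every role rose, from the barrel and the cap to the assembly chaperones. Of the 49 tested genes, 38 rose and none fell (edgeR quasi-likelihood test, Benjamini-Hochberg adjusted p under 0.05), against 24.9% called among all tested genes, 14% higher and 10.9% lower. The median log2 fold change was 0.55 over the family and −0.021 over all genes, and 48 of the 49 estimates were above 0. With upper-quartile scaling, which called 11.5% of all genes higher and 13.6% lower, 36 of the family rose and none fell. In 37 genes every full-length library was above every vehicle library, against 14.5% of all genes, and in none was every full-length library below, against 11.4%. Each treated library was also set against the vehicle library of its own batch, and 43 of the 49 genes were then higher in all 4 batches, against 26.5% of all genes. With the batch as a block 41 rose and none fell, against 21.4% and 22.4% of all genes. All 50 genes together held 0.321, 0.338, 0.354 and 0.333% of the counts in vehicle replicates 1 to 4, 0.440, 0.516, 0.473 and 0.509% in the full-length libraries and 0.322, 0.431, 0.372 and 0.422% in the coiled-coil libraries. Every full-length library was above every vehicle library and every coiled-coil library in that share, whereas the coiled-coil libraries overlapped those of vehicle.

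**Figure D1:**
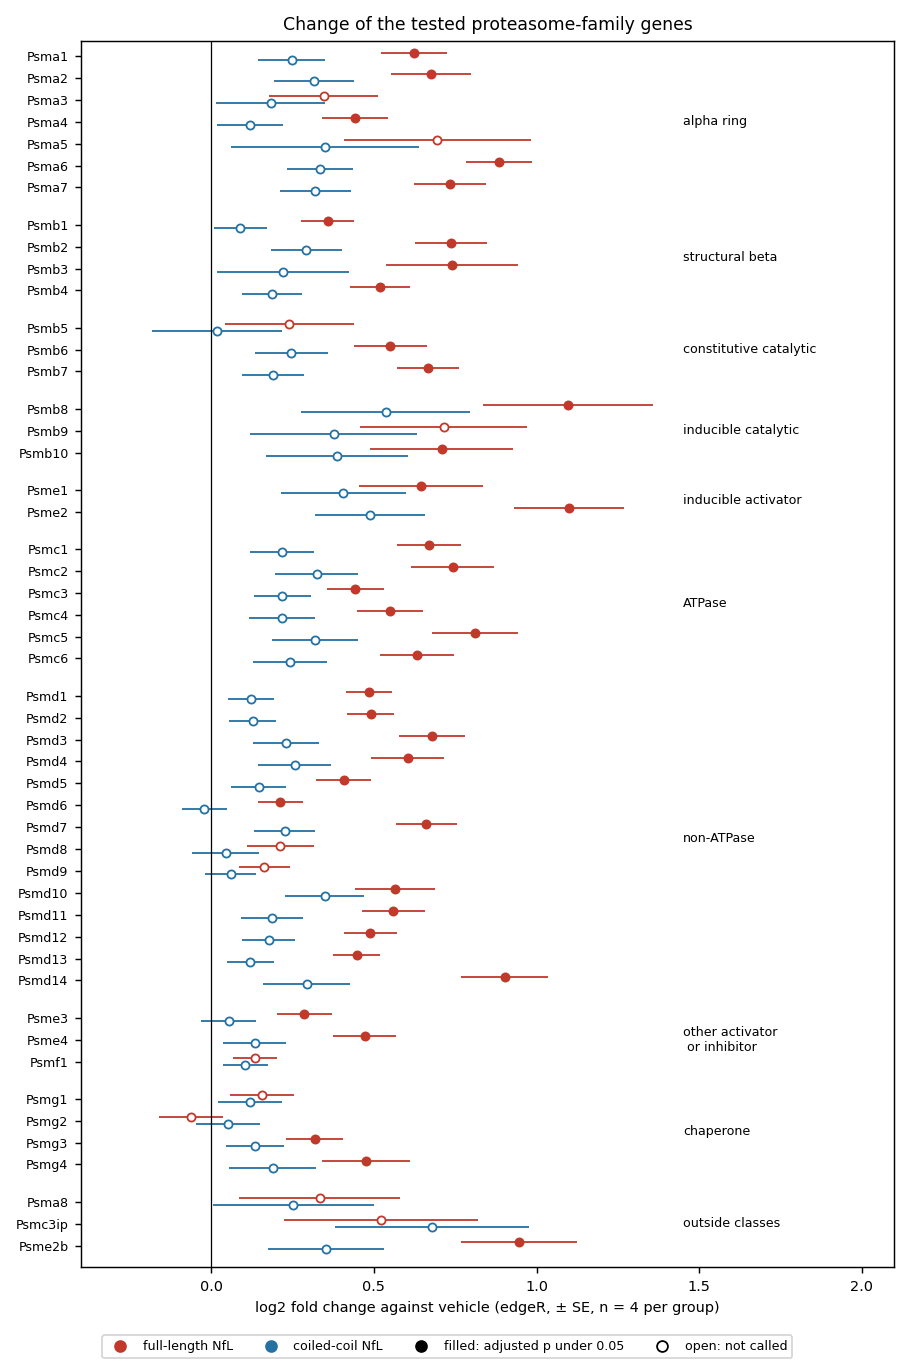
Log2 fold change against vehicle (x axis, ± SE, n = 4 libraries per group) of the 49 tested genes, ordered by role (y axis), with full-length NfL in red and coiled-coil NfL in blue. Filled points, 38 red and 0 blue, have an edgeR adjusted p under 0.05, and nearly all points of both colours lie to the right of 0.

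The alpha ring rose in 5 of its 7 genes, with a median log2 fold change of 0.68. Psma6 had the smallest p of the family and measured 112, 109, 118 and 109 CPM in vehicle replicates 1 to 4, 191, 218, 197 and 222 in the full-length libraries and 113, 155, 136 and 161 in the coiled-coil libraries. Its full-length libraries were all above the other 8. The change was 0.88 ± 0.10 (SE, log2 scale; edgeR adjusted p = 0.000453), a 1.85-fold rise. Psma7 measured 80.1, 67.4, 87.0 and 70.7 CPM in vehicle replicates 1 to 4, 113, 139, 124 and 132 in the full-length libraries and 80.2, 111, 93.7 and 95.6 in the coiled-coil libraries, again with no overlap between the full-length libraries and the rest, and rose by 0.73 ± 0.11 (edgeR adjusted p = 0.00126). Psma1, Psma2 and Psma4 rose by 0.62, 0.68 and 0.44. Psma3 and Psma5 did not pass, at 0.34 ± 0.17 and 0.70 ± 0.29 (edgeR adjusted p = 0.149 and 0.0960). Psma5 passed with the batch as a block (edgeR adjusted p = 0.0303).

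All 4 structural beta genes rose, from 0.36 in Psmb1 to 0.74 in Psmb3. Psmb2 measured 59.0, 61.6, 79.0 and 61.5 CPM in vehicle replicates 1 to 4, 99.2, 111, 110.2 and 114 in the full-length libraries and 65.8, 87.7, 80.7 and 85.7 in the coiled-coil libraries, and its change was 0.74 ± 0.11 (edgeR adjusted p = 0.00123). Psmb4 measured 105, 94.0, 124 and 105 CPM in vehicle replicates 1 to 4, 149, 159, 147 and 159 in the full-length libraries and 105, 130.2, 127 and 125 in the coiled-coil libraries, and its change was 0.52 ± 0.092 (edgeR adjusted p = 0.00285). For both genes every full-length library was above all 8 others, and for Psmb2 vehicle replicate 3 stood apart from the other vehicle libraries. Psmb3, which was at 4.38, 4.44, 5.22 and 3.85 CPM in vehicle and 6.96, 9.52, 6.19 and 7.21 with full-length NfL, lost its call without full-length replicate 2 (log2 0.60) and without vehicle replicate 4 (0.68).

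Of the constitutive catalytic genes Psmb6 and Psmb7 rose and Psmb5 did not pass. Psmb6 (ENSMUSG00000018286, chromosome 11, 70525367 to 70527858, plus strand, coordinates in GRCm38), the caspase-like subunit, measured 114, 107, 122 and 103 CPM in vehicle replicates 1 to 4, 145, 182, 157 and 171 in the full-length libraries and 111, 154, 119 and 145 in the coiled-coil libraries. Psmb7 (ENSMUSG00000026750, chromosome 2, 38588036 to 38644087, minus strand), the trypsin-like subunit, measured 41.0, 36.5, 45.3 and 36.5 CPM in vehicle replicates 1 to 4, 58.4, 66.7, 60.6 and 66.9 in the full-length libraries and 40.7, 50.2, 41.7 and 49.0 in the coiled-coil libraries. The full-length libraries of both lay above all vehicle libraries, and the rises were 0.55 ± 0.11 and 0.67 ± 0.095 (edgeR adjusted p = 0.00523 and 0.00102). Psmb5 (ENSMUSG00000022193, chromosome 14, 54614119 to 54618022, minus strand), the chymotrypsin-like subunit, measured 3.08, 2.09, 2.45 and 2.03 CPM in vehicle replicates 1 to 4, 3.36, 3.05, 2.60 and 2.37 in the full-length libraries and 2.83, 1.92, 2.31 and 2.73 in the coiled-coil libraries. These groups overlapped, and the change of 0.24 ± 0.20 did not pass (edgeR adjusted p = 0.393, 95% interval −0.21 to 0.69).

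The inducible genes Psme2 and Psmb8 had the largest rises of the family, and 4 of the 5 inducible genes rose. Psmb8 (ENSMUSG00000024338, chromosome 17, 34197721 to 34201454, plus strand), the inducible chymotrypsin-like subunit, measured 119, 161, 214 and 122 CPM in vehicle replicates 1 to 4, 237, 386, 339 and 356 in the full-length libraries and 128, 304, 208 and 253 in the coiled-coil libraries. All full-length libraries were above all vehicle libraries, and the change was 1.10 ± 0.26 (edgeR adjusted p = 0.0110), a 2.14-fold rise. Psme2 (ENSMUSG00000079197, chromosome 14, 55587441 to 55591113, minus strand), the beta subunit of the activator, measured 16.4, 16.3, 23.7 and 14.7 CPM in vehicle replicates 1 to 4, 36.1, 39.9, 38.4 and 37.9 in the full-length libraries and 17.6, 29.0, 24.8 and 28.3 in the coiled-coil libraries. Its full-length libraries were above all 8 others, and it rose by 1.10 ± 0.17 (edgeR adjusted p = 0.00143).

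Psmb10 (ENSMUSG00000031897, chromosome 8, 105935735 to 105938444, minus strand), the inducible trypsin-like subunit, measured 89.5, 94.4, 145 and 66.1 CPM in vehicle replicates 1 to 4, 141, 166, 185 and 154 in the full-length libraries and 93.1, 165, 121 and 137 in the coiled-coil libraries. Psme1 (ENSMUSG00000022216, chromosome 14, 55578123 to 55581529, plus strand), the alpha subunit of the activator, measured 96.6, 117, 143 and 98.5 CPM in vehicle replicates 1 to 4, 137, 187, 201 and 186 in the full-length libraries and 101, 194, 147 and 161 in the coiled-coil libraries. In both, 1 full-length library, replicate 1, lay below vehicle replicate 3, and the rises were 0.71 ± 0.22 and 0.64 ± 0.19 (edgeR adjusted p = 0.0343 and 0.0290). Psmb9 (ENSMUSG00000096727, chromosome 17, 34181987 to 34187764, minus strand), the inducible counterpart of Psmb6, measured 39.6, 51.9, 80.2 and 40.5 CPM in vehicle replicates 1 to 4, 64.7, 90.3, 105 and 87.8 in the full-length libraries and 42.2, 88.5, 73.7 and 70.9 in the coiled-coil libraries. Its groups overlapped in the same way, and the change of 0.71 ± 0.26 did not pass (edgeR adjusted p = 0.0612). With the batch as a block Psmb9 was called (edgeR adjusted p = 0.00159), as were all 5 inducible genes. Vehicle replicate 3 was the highest vehicle library for all 5 inducible genes. The calls of Psmb10 and Psme1 were each lost on leaving out any 1 of 6 libraries, vehicle replicates 1, 2 and 4 and full-length replicates 2, 3 and 4, with changes of 0.57 to 0.74 and 0.57 to 0.67 in those fits.

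**Figure D2:**
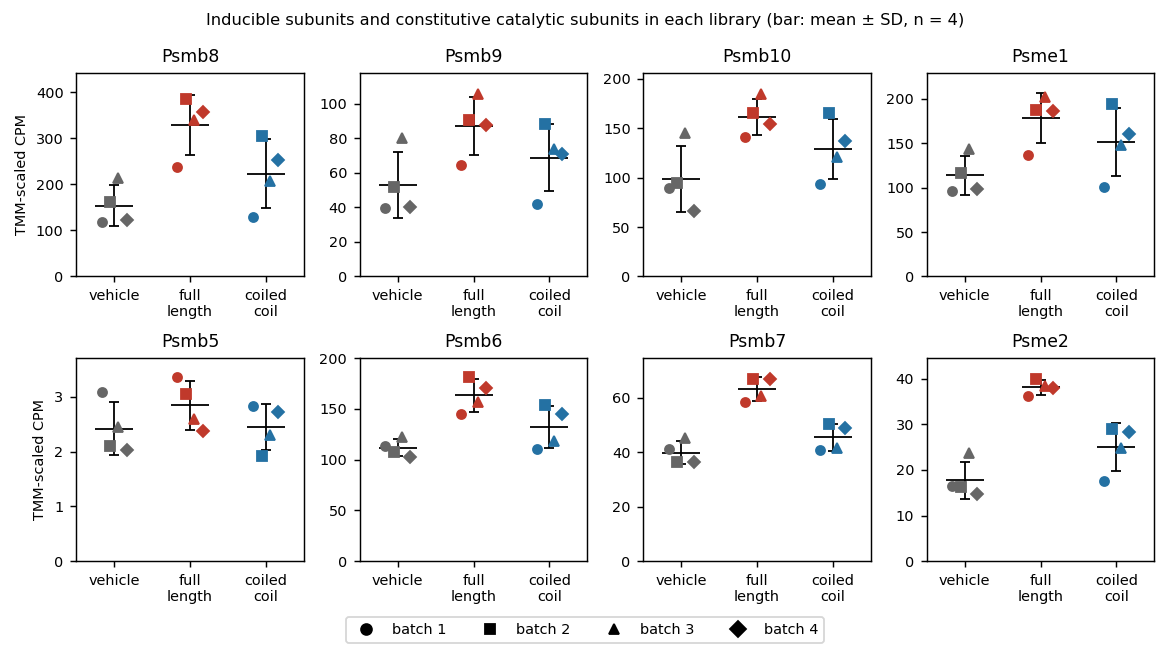
TMM-scaled CPM (y axis, from 0) of the 5 inducible genes and the 3 constitutive catalytic genes in each library, by group (x axis), with marker shapes for batches 1 to 4 and bars at the mean ± SD of 4 libraries. The full-length points of Psmb8 and Psme2 lie above all vehicle points, whereas those of Psmb5, Psmb9, Psmb10 and Psme1 overlap them.

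Since inducible and constitutive subunits compete for the same sites, their ratio was taken in each library in CPM per kb of exon. Psmb8 to Psmb5 was 10.3, 20.4, 23.2 and 15.9 in vehicle replicates 1 to 4, 18.7, 33.6, 34.7 and 40.0 in the full-length libraries and 12.1, 42.2, 24.0 and 24.7 in the coiled-coil libraries. The groups overlapped, with means of 17.5 ± 5.66, 31.7 ± 9.12 and 25.7 ± 12.4 (SD, n = 4). Against the vehicle library of the same batch the ratio was higher in 4 of 4 batches with either form of NfL. Psmb10 to Psmb7 was 4.91 ± 1.20, 5.14 ± 0.66 and 5.65 ± 0.83, and Psmb9 to Psmb6 was 0.240 ± 0.0694, 0.273 ± 0.0499 and 0.264 ± 0.0538, in vehicle, full-length and coiled-coil libraries. For these last pairs the group means differed by less than the SD of the vehicle libraries. Within batches Psmb9 to Psmb6 was higher than vehicle in 4 of 4 with full-length and 3 of 4 with coiled-coil NfL, and Psmb10 to Psmb7 in 2 of 4 and 3 of 4. With the length of the longest coding transcript in place of exon length the means were 36.3, 65.9 and 53.4 for Psmb8 to Psmb5 and 2.16, 2.27 and 2.49 for Psmb10 to Psmb7. Psmb5 has 57.1% of its transcript windows in common with other genes, so its level and the size of its ratio are uncertain.

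In the cap, all 6 ATPases rose, from 0.44 in Psmc3 to 0.81 in Psmc5, with a median of 0.65. Psmc1, whose tail opens the gate of the alpha ring, measured 40.6, 37.9, 40.6 and 39.5 CPM in vehicle replicates 1 to 4, 56.5, 72.3, 56.3 and 67.3 in the full-length libraries and 40.4, 49.6, 43.5 and 50.9 in the coiled-coil libraries. Its full-length libraries were above all 8 others, and the change was 0.67 ± 0.10 (edgeR adjusted p = 0.00114). Psmc5 measured 68.8, 72.2, 78.2 and 66.4 CPM in vehicle replicates 1 to 4, 105, 146, 117 and 133 in the full-length libraries and 69.6, 106, 84.0 and 96.3 in the coiled-coil libraries, with full-length libraries above all vehicle libraries, and rose by 0.81 ± 0.13 (edgeR adjusted p = 0.00183). Psmc2 measured 84.5, 90.2, 96.2 and 87.2 CPM in vehicle replicates 1 to 4, 118, 170.3, 151 and 159 in the full-length libraries and 86.4, 127, 114 and 121 in the coiled-coil libraries, had no full-length library within the vehicle range, and rose by 0.74 ± 0.13 (edgeR adjusted p = 0.00259). No ATPase call was lost under any of the 20 other settings tried.

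Among the 14 non-ATPases 12 rose, with a median of 0.49 and a range from 0.16 in Psmd9 to 0.90 in Psmd14. Psmd14, the deubiquitinase that strips ubiquitin chains from the substrate, measured 49.8, 53.2, 58.7 and 54.7 CPM in vehicle replicates 1 to 4, 78.5, 118, 99.6 and 109 in the full-length libraries and 51.7, 72.5, 65.9 and 75.2 in the coiled-coil libraries, with every full-length library above the other 8, and rose by 0.90 ± 0.13 (edgeR adjusted p = 0.00123). Psmd7, its binding partner in the lid, measured 81.0, 77.3, 78.3 and 80.7 CPM in vehicle replicates 1 to 4, 116, 141, 117 and 128 in the full-length libraries and 80.4, 102, 84.1 and 105 in the coiled-coil libraries, and rose by 0.66 ± 0.094 (edgeR adjusted p = 0.00102). Psmd1, the large scaffold of the base, measured 139.7, 132, 137 and 138 CPM in vehicle replicates 1 to 4, 180.0, 205, 175 and 206 in the full-length libraries and 137, 156, 146 and 156 in the coiled-coil libraries, and rose by 0.49 ± 0.071 (edgeR adjusted p = 0.00121). For Psmd7 and Psmd1 every full-length library was above the other 8. Psmd10, a chaperone of base assembly, measured 48.2, 32.3, 42.0 and 33.6 CPM in vehicle replicates 1 to 4, 60.5, 54.9, 60.4 and 55.0 in the full-length libraries and 44.4, 49.5, 47.9 and 56.9 in the coiled-coil libraries, had every full-length library above every vehicle library, and rose by 0.56 ± 0.12 (edgeR adjusted p = 0.00705). Psmd8 and Psmd9, the second a base chaperone as well, did not pass, at 0.21 ± 0.10 and 0.16 ± 0.079 (edgeR adjusted p = 0.151 and 0.149). Psmd8 passed with the batch as a block (edgeR adjusted p = 0.0372). Psmd6, at 0.21 ± 0.069, was the smallest change called and lost its call under 10 of 20 settings.

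Of the other activators and inhibitors, Psme3 and Psme4 rose and Psmf1 did not pass. Psme4, a large activator of nuclear proteasomes, measured 165, 169, 182 and 156 CPM in vehicle replicates 1 to 4, 188, 262, 229 and 253 in the full-length libraries and 176, 192, 184 and 184 in the coiled-coil libraries, and rose by 0.47 ± 0.10 (edgeR adjusted p = 0.00534). Psme3, the activator found in the nucleus, measured 83.2, 94.1, 86.6 and 93.5 CPM in vehicle replicates 1 to 4, 111, 115, 102 and 108 in the full-length libraries and 80.9, 102, 85.3 and 102 in the coiled-coil libraries, and rose by 0.29 ± 0.085 (edgeR adjusted p = 0.0295), a call lost under 10 of 20 settings. The full-length libraries of both genes were above all vehicle libraries. Psmf1, an inhibitor of the barrel in vitro, was at 35.8, 34.5, 35.1 and 33.7 CPM in vehicle and 36.3, 40.1, 38.5 and 37.8 with full-length NfL, and its change of 0.13 ± 0.068 did not pass (edgeR adjusted p = 0.168).

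Psmg3 and Psmg4, chaperones that build the alpha ring, rose by 0.32 ± 0.088 and 0.48 ± 0.13 (edgeR adjusted p = 0.0214 and 0.0238). Psmg3 measured 9.42, 9.42, 10.2 and 10.2 CPM in vehicle replicates 1 to 4, 11.2, 12.5, 12.3 and 12.9 in the full-length libraries and 10.1, 11.5, 10.1 and 11.4 in the coiled-coil libraries, and Psmg4 measured 7.51, 7.33, 10.3 and 7.78 CPM in vehicle replicates 1 to 4, 11.4, 9.72, 12.8 and 11.9 in the full-length libraries and 8.89, 10.6, 9.53 and 8.48 in the coiled-coil libraries. The full-length and vehicle libraries were apart for Psmg3 and overlapped for Psmg4, whose vehicle replicate 3 stood apart at 10.3 CPM, and the calls were lost under 6 and 7 of 20 settings. Psmg1 and Psmg2, which form a pair on the alpha ring, were at 0.16 ± 0.10 and −0.061 ± 0.10 (edgeR adjusted p = 0.260 and 0.670), and Psmg2 was the single estimate below 0 in this comparison. Over the family, 27 of the 38 calls were kept under all 20 other settings. The 11 lost under at least 1 were Psma4, Psmb1, Psmb3, Psmb8, Psmb10, Psmd5, Psmd6, Psme1, Psme3, Psmg3 and Psmg4. As a setting chosen after seeing the data, vehicle replicate 2 and full-length replicate 4 were left out together. Without both libraries 27 genes rose and none fell, against 5.35% and 3.67% of all genes, and Psme2 alone rose among the inducible ones.

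Coiled-coil NfL was compared with the same vehicle libraries, so its values share their controls with those above. No proteasome gene was called in this comparison by edgeR, against 0% of all genes, none by DESeq2, against 0.163% of all genes higher and 0.0613% lower, and none with the batch as a block, against 0.00681% higher and 0.00681% lower. An unadjusted p under 0.05 was reached by 17 genes in edgeR and 15 in DESeq2, all of them higher, against 4.6% and 4.58% of all genes higher at that p and 2.77% and 3.22% lower. The median log2 fold change was 0.22 against 0.0039 over all genes, 48 of 49 estimates were above 0, and in 0 of 49 were the groups apart, against 1.42% of all genes with every coiled-coil library higher and 1.31% with every one lower. Ratios within batches were above 0 in all 4 batches for 13 genes, against 11% of all genes. The estimates for the class members with the smallest p were 0.33 ± 0.10 in Psma6, 0.29 ± 0.11 in Psmb2, 0.32 ± 0.13 in Psmc2 and 0.35 ± 0.12 in Psmd10 (edgeR adjusted p = 0.646, 0.661, 0.668 and 0.660). Psmf1 and Psmg3, the members with the smallest p of the remaining classes, were at 0.10 ± 0.068 and 0.13 ± 0.088 (edgeR adjusted p = 0.769 and 0.773). Psmb8 stood at 0.54 ± 0.26 with a 95% interval of −0.050 to 1.12, and Psme2 at 0.49 ± 0.17 with an interval of 0.11 to 0.87. Psmb5 was at 0.017 ± 0.20 and changed sign under 8 of 20 settings.

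Within batches the coiled-coil values were unlike each other. The median log2 ratio of the 49 genes to the vehicle library of the same batch was 0.015, 0.41, 0.030 and 0.40 in batches 1 to 4, with 27, 46, 27 and 49 genes above 0. The medians of batches 2 and 4 were thus above those of batches 1 and 3, while the median over all genes lay between −0.0053 and 0.011 in every batch. For the 5 inducible genes the medians were 0.092, 0.81, −0.041 and 0.95. Psmb8 was at 0.11, 0.92, −0.041 and 1.05 and Psma6 at 0.015, 0.51, 0.20 and 0.56 in batches 1 to 4. With full-length NfL the family medians were 0.48, 0.73, 0.35 and 0.67, with 49, 47, 44 and 47 genes above 0, so that the median was above 0 in every batch and again higher in batches 2 and 4. Both treatments in a batch were set against 1 vehicle library, and the part of that library in the pattern was not tested.

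**Figure D3:**
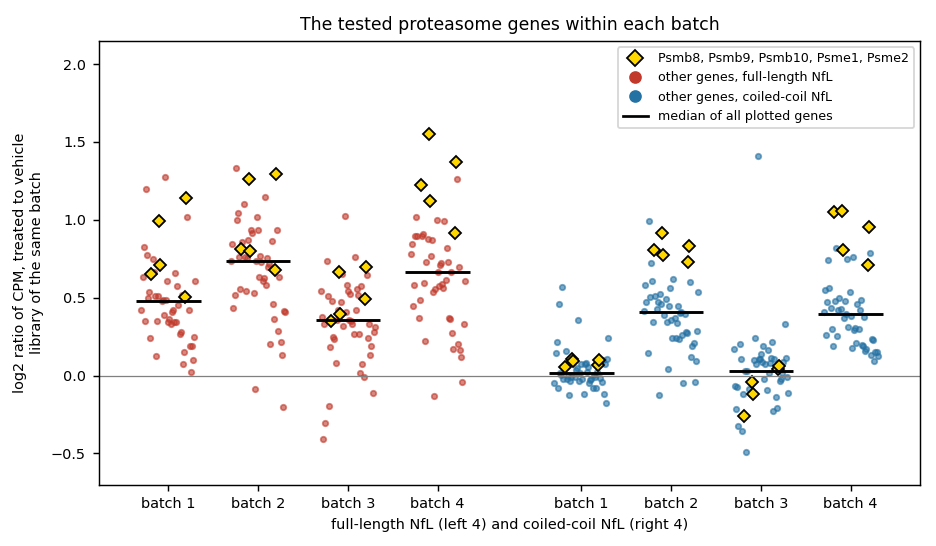
Log2 ratio of CPM between the treated and the vehicle library of the same batch (y axis) for the 49 tested genes, by batch (x axis), with full-length NfL on the left, coiled-coil NfL on the right, the 5 inducible genes as yellow diamonds and a line at the median. With coiled-coil NfL the medians are 0.015 and 0.03 in batches 1 and 3 and 0.41 and 0.40 in batches 2 and 4.

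The difference between the NfL forms was tested directly by comparing full-length with coiled-coil NfL. Of the 49 genes, 9 were higher with full-length NfL and none was lower, against 2.72% called among all genes, 1.38% higher and 1.34% lower, and the median log2 difference was 0.33. With the batch as a block 32 genes were higher and none lower, against 8.99% and 10.1% of all genes. In 20 genes every full-length library was above every coiled-coil library and in none below, against 7.46% and 5.02% of all genes, and 38 genes were higher in all 4 batches, against 21.1%. The 9 called genes were Psma6 in the alpha ring, Psmb7 among the catalytic subunits, the ATPase Psmc1 and the non-ATPases Psmd1, Psmd2, Psmd3, Psmd7, Psmd13 and Psmd14. Psma6 differed by 0.55 ± 0.10, Psmb7 by 0.47 ± 0.094, Psmc1 by 0.45 ± 0.10 and Psmd14 by 0.61 ± 0.13 (edgeR adjusted p = 0.0218, 0.0282, 0.0373 and 0.0388). None of the 5 inducible genes passed. Psme2 was at 0.61 ± 0.17 with a 95% interval of 0.23 to 0.99, and Psmb8 at 0.56 ± 0.26 with an interval of −0.025 to 1.15 (edgeR adjusted p = 0.0708 and 0.235), and both passed with the batch as a block (edgeR adjusted p = 0.0134 and 0.0256). The count rested on single libraries, as did the share over all genes. It was 0 without coiled-coil replicate 3, full-length replicate 2 or full-length replicate 4, against 0.207, 0.0941 and 0.1% of all genes higher. Without coiled-coil replicate 1 it was 1, against 0.236%. Without vehicle replicate 2 or 4 it was 5, against 0.759 and 0.919%. Leaving out coiled-coil replicate 2 or full-length replicate 1 gave 15 and 17, against 2.06 and 2.18%. The family median was 0.28 to 0.40 in these fits. DESeq2 called 26 genes higher, against 5.43% of all genes higher and 4.28% lower.

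Per kb of exon the 14 constitutive genes of the barrel (alpha ring, structural beta and constitutive catalytic) differed widely in measured level, and the lowest of these 14 were genes that share sequence with others. The testis subunit Psma8 lay lower still, at 0.660 ± 0.197 CPM per kb (SD, n = 4) in vehicle, with no shared window. For each gene the share of 50-base windows of its transcript, the read length, that also occur in transcripts of other genes in GENCODE M21 was counted. Reads from such windows may not be assignable to 1 gene. Both strands were searched, so windows shared with a gene that overlaps on the opposite strand, as Tap1 does Psmb9, count too. Reads from those may be told apart by strand. Psma5, Psmb3 and Psmb5 shared 55.4%, 55.8% and 57.1% of their windows, largely with pseudogenes, and measured 1.93 to 2.69 CPM per kb in vehicle. The 8 of these 14 genes that shared under 5% (Psma1, Psma2, Psma6, Psma7, Psmb1, Psmb2, Psmb4 and Psmb6) measured 12.4 to 90.9 CPM per kb. All 8 rose with full-length NfL, against 14% of all tested genes. Psma3, Psma4 and Psmb7 lay between, sharing 22.0%, 31.5% and 28.1% and measuring 1.87 ± 0.247, 19.6 ± 2.08 and 11.6 ± 1.23 CPM per kb (SD, n = 4). These bounds were set after the levels were seen, and the part of shared reads in the levels was not tested. Of the 22 genes in role classes with no shared window, 18 rose with full-length NfL, with a median of 0.56. Of the 9 that shared over 20%, 6 rose, with a median of 0.49. Both counts stand against 14% of all tested genes higher. Among the genes named above, Psmc1, Psme1, Psmb9, Psmd1, Psmb8 and Psmg3 shared 17.6%, 14.1%, 12.5%, 8.36%, 5.83% and 22.7%, those of Psmb9 with Tap1. Outside the barrel, high sharing did not always go with a low level. Psmd2 shared 26.4% and Psme2b 69.3%, and they measured 46.5 ± 1.73 and 102 ± 20.4 CPM per kb (SD, n = 4) in vehicle.

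**Figure D4:**
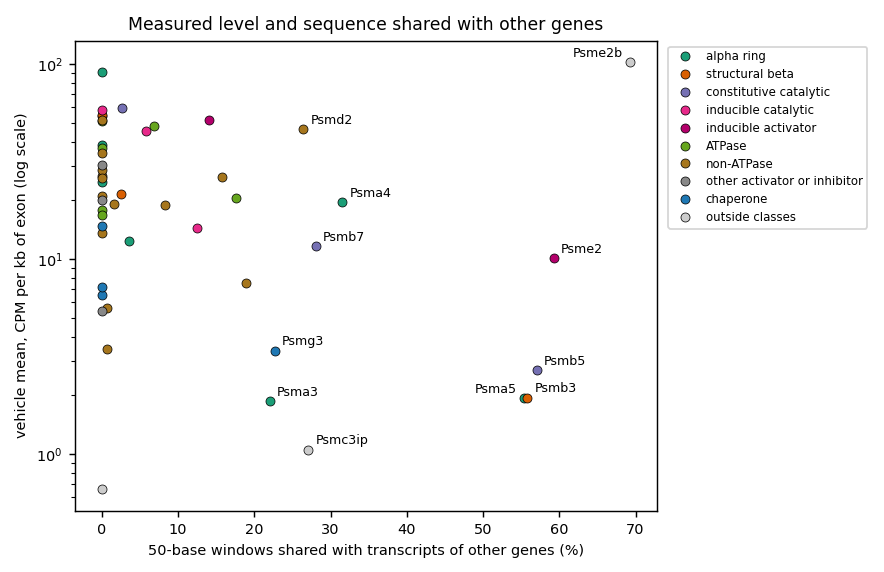
Vehicle mean in CPM per kb of exon (y axis, log scale) against the share of 50-base transcript windows also found in other genes (x axis, %) for the 49 genes with counts, coloured by role, with names above 20%. Psma5, Psmb3 and Psmb5, at over 50% shared, measure 1.93 to 2.69 CPM per kb, and Psme2b lies at the upper right.

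Psme2 and Psme2b could not be measured apart with certainty. Psme2b (ENSMUSG00000078153, chromosome 11, 48945354 to 48946190, minus strand) shared 69.3% of its windows and Psme2 59.3%, mostly with each other. Aligned over 717 columns, their coding sequences were identical at 680, mismatched at 13 and gapped at 24. The ungapped 50-base stretch with the most differences, coding bases 446 to 495 of Psme2 and 470 to 519 of Psme2b, held 2, marked by capitals, and these stretches of the GENCODE M21 transcripts show what a single 50-base read had to tell apart.
Psme2: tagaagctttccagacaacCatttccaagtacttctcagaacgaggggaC
Psme2b: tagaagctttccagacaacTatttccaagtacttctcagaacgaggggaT

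A stretch of the same length nearby, bases 415 to 464 of Psme2 and 439 to 488 of Psme2b, was the same in both genes.
Psme2 and Psme2b: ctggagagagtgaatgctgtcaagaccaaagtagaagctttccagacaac

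Psme2b measured 74.1, 91.6, 107 and 70.0 CPM in vehicle replicates 1 to 4, 150.1, 175, 167 and 168 in the full-length libraries and 73.3, 139, 105 and 121 in the coiled-coil libraries, above Psme2 in every library. It rose with full-length NfL by 0.95 ± 0.18 (edgeR adjusted p = 0.00382), near the 1.10 of Psme2.

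Other genes of the ubiquitin and proteasome system were taken from 5 lists, whose counts with full-length NfL stand against 14% of all genes higher and 10.9% lower. With full-length NfL, 5 of 8 tested proteasome-associated factors rose and none fell, among them Ecpas, a scaffold that holds cap and barrel together (0.35 ± 0.062, edgeR adjusted p = 0.00282), and Txnl1, a thioredoxin-like protein of the cap (0.39 ± 0.078, edgeR adjusted p = 0.00457). Pomp, the chaperone that matures new barrels, rose by 0.51 ± 0.11. Of 8 genes that deliver ubiquitinated proteins 4 rose and 1 fell: Vcp, the segregase that extracts substrates, measured 67.3, 64.0, 64.9 and 64.4 CPM in vehicle replicates 1 to 4, 98.3, 115, 95.3 and 113 in the full-length libraries and 67.6, 85.4, 76.3 and 83.8 in the coiled-coil libraries. Its full-length libraries were all above its vehicle libraries and it rose by 0.69 ± 0.086 (edgeR adjusted p = 0.000561). Its cofactor Nploc4 rose by 0.48 ± 0.081, and the shuttle Ubqln2 fell by 0.59 ± 0.11. Of 3 tested genes of ubiquitin and its activation 2 rose, the activating enzyme Uba1 by 0.42 ± 0.077 and the polyubiquitin gene Ubb by 0.45 ± 0.13.

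The transcriptional regulators of subunit genes moved in both directions, 1 of 4 up and 2 down. Nfe2l1, whose product Nrf1 raises subunit genes when proteasome activity is short, measured 271, 235, 239.7 and 232 CPM in vehicle replicates 1 to 4, 383, 689, 419.7 and 515 in the full-length libraries and 239.9, 414, 262 and 339 in the coiled-coil libraries. All full-length libraries were above all vehicle libraries, and the gene rose by 1.04 ± 0.20 (edgeR adjusted p = 0.00391). Nfe2l2, the gene of its relative Nrf2, fell by 0.51 ± 0.11 and Ddi2, the protease that activates Nrf1, by 0.47 ± 0.11 (edgeR adjusted p = 0.00790 and 0.0101). Of 9 tested genes of interferon control and peptide loading 3 rose and 1 fell, and 6 rose and 1 fell with the batch as a block, against 21.4% and 22.4% of all genes. Tapbp, Erap1 and B2m, of the class I loading pathway, rose by 0.66 ± 0.19, 0.49 ± 0.13 and 0.59 ± 0.17, and the interferon receptor gene Ifngr1 fell by 0.50 ± 0.11 (edgeR adjusted p = 0.00725). Tap1 was at 0.83 ± 0.33 and passed with the block (edgeR adjusted p = 0.0850 without it and 0.00131 with it). Ifng had 0 counts in every library and Ifnb1 1 to 11. With coiled-coil NfL none of the 32 tested genes of these lists was called by edgeR, with or without the block, and the smallest-p members included Vcp at 0.26 ± 0.085, B2m at 0.50 ± 0.17 and Nfe2l1 at 0.36 ± 0.20 (edgeR adjusted p = 0.647, 0.652 and 0.729). Between the forms, Vcp, Nploc4 and Rad23b were higher with full-length NfL and Ifngr1 was lower.

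**Figure D5:**
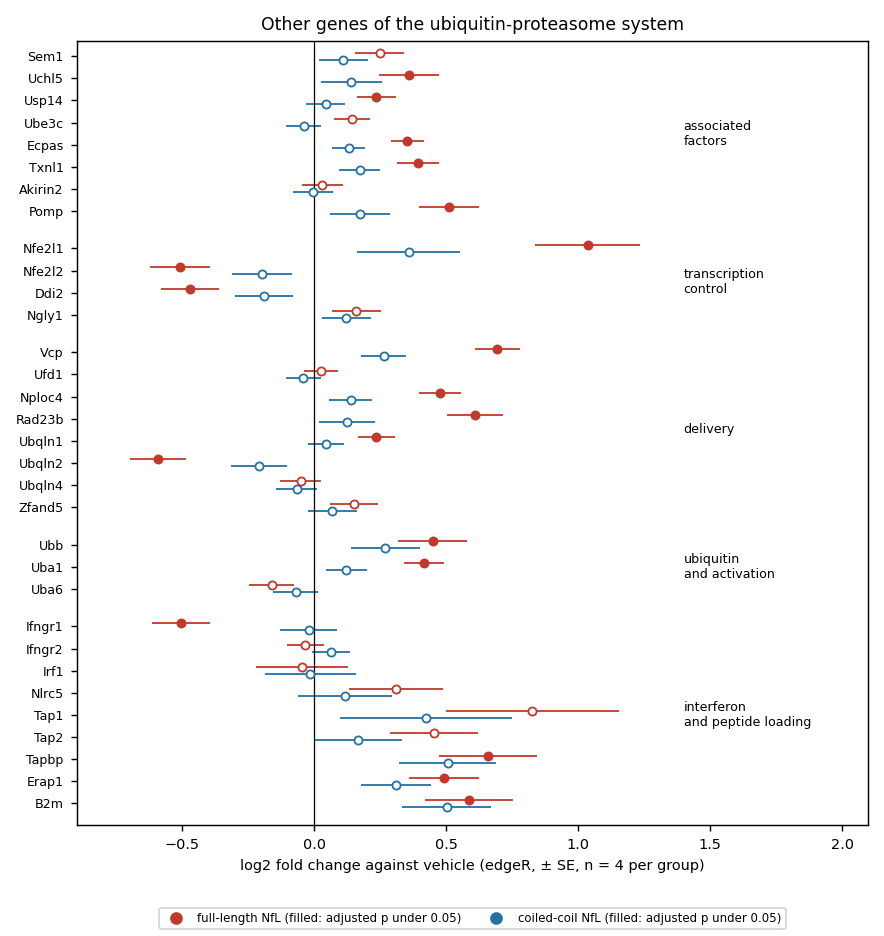
Log2 fold change against vehicle (x axis, ± SE, n = 4 libraries per group) of the 32 tested genes of the 5 lists (y axis), with full-length NfL in red and coiled-coil NfL in blue. Filled points, all of them red, have an edgeR adjusted p under 0.05, and Nfe2l1 lies farthest to the right at 1.04.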

How the data were processed

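The authors deposited 1 table of raw read counts per Ensembl gene for the 12 libraries, which per the labels came from a stranded kit for polyadenylated RNA with single 50-base reads. GSNAP and GRCm38 are named in the submitters' processing notes, and neither the counting tool and annotation nor the strandedness of counting is given in the sources used here. Symbols came from GENCODE M21 and matched 99.72% of 52636 identifiers. The family and the gene lists were chosen with earlier results of these data known, and some genes of the lists are not reported here. Genes kept by filterByExpr (14687, holding 99.933% of counts) were fitted with edgeR 4.0.16 in R 4.3.3: TMM scaling, 3 groups, quasi-likelihood F tests with 9 residual degrees of freedom, Benjamini-Hochberg adjustment over all tested genes and a threshold of 0.05. SE was taken from the F statistic. Levels are TMM-scaled CPM, divided where stated by union exon length in kb. The fit was checked on simulated counts. Depth was 20162427 to 31048044 counts per library. Genes were named by rule: the 5 inducible and 3 constitutive catalytic genes, in each other role the 2 with the smallest p for full-length NfL and the 1 for coiled-coil NfL, any called gene against its class, and in each list the 2 with the smallest p. Psmd14, Psmb3, Psma8, Psmc3ip and Psme2b were given values by library outside this rule. Pomp, Rad23b, Tap1, Ifng and Ifnb1 were named from the lists outside it as well. Other members are named with their change or level only. The batch label pairs the replicate numbers: after group means were removed, same-numbered libraries correlated at 0.306 to 0.735 (12 of 12 pairs over 0.1) and others at −0.461 to 0.445. Alternatives were upper-quartile and DESeq2 scaling, the DESeq2 1.42.0 Wald test, no filter, removal of a trend with GC content and length, the batch as a block, each library left out, and, chosen after seeing the data, 2 libraries left out together and ratios by transcript length. A planned comparison of protein sequences was not run.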

Additional observations from a re-analysis of the deposited data

Results flagged for a closer look

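In each group of 4 libraries the highest and the lowest value of each tested gene were compared with the rest, and 6 of 147 groups had a library past the 95% critical value of Dixon's test. Chance sets off about 1 in 20 such groups. Vehicle replicate 3 was the high library in 3 of them: Psma1 at 121 CPM against 112 for the next library, Psmb2 at 79.0 against 61.6 and Psmg4 at 10.3 against 7.78. Psma8 was highest in replicate 1 with full-length NfL, at 2.58 CPM against 1.97, and in replicate 1 with coiled-coil NfL, at 2.63 against 1.80. Psmg1 was lowest in full-length replicate 1, at 9.34 CPM against 9.88.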

How the results depend on the processing

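The count of proteasome genes that rose with full-length NfL stayed within 1.5 times of 38 under all 20 other settings. It was 35 to 43 under other scalings, tests, filters and models, against 6.55 to 28.5% of all genes higher. On leaving out single libraries it was 32 to 41, against 9.36 to 15.8%. Without vehicle replicate 2 and full-length replicate 4 it was 27, against 5.35%. None fell under any setting, against 3.67 to 22.4% of all genes lower. No gene of the family was called with coiled-coil NfL under any setting, against at most 0.163% of all genes higher and 0.0613% lower. For full-length against coiled-coil NfL the 9 became 26 with DESeq2 and 32 with the replicate block, against 5.43 and 8.99% of all genes higher. With the block and the GC and length trend removed there were 34, against 15.8%. On leaving out single libraries the count was 0 to 17, against 0.0941 to 2.18%. Without vehicle replicate 2 and full-length replicate 4 it was 0, against 0.0338%. With the replicate block 41 genes rose with full-length NfL, against 21.4% of all genes. Apart from the calls named in the report (Psma5, Psmb9 and Psmd8 against vehicle, and those between the forms) the block changed no call of the family against vehicle. Ratios by the longest coding transcript were 36.3, 65.9 and 53.4 for Psmb8 to Psmb5 and 2.16, 2.27 and 2.49 for Psmb10 to Psmb7 in vehicle, full-length and coiled-coil libraries, since the union of exons differs in length from the transcript. In the whole 300-base promoter window 5 genes, or 11.9% against 3.49% of all promoters, held the interferon-stimulated response element core, among them 1 of the 5 inducible genes, since the window is longer. The estimates that changed sign were all uncalled. Against vehicle with coiled-coil NfL they were Psmb5 (−0.0071 with upper-quartile scaling, −0.036 with the trend removed, −0.040 with the trend removed and the block, −0.045 without both libraries, −0.067 to 0.16 leaving out single libraries), Psmd6 (−0.070 to 0.034 leaving out single libraries), Psmd8 (−0.018 without both libraries, −0.018 to 0.15 leaving out single libraries), Psme3 (−0.0048 to 0.11 leaving out single libraries) and Psmg2 (−0.025 with the trend removed, −0.026 with the trend removed and the block). Between the forms they were Psma8 (−0.038 to 0.27 leaving out single libraries), Psmc3ip (−0.33 to 0.025 leaving out single libraries) and Psmf1 (−0.018 to 0.072 leaving out single libraries). For these counts and signs the cause was not tested. Depth limits Psma8, Psmc3ip and Psmb5 most, at means of 1.65, 1.91 and 2.41 CPM in vehicle.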

Other observations

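Of the genes kept outside the role classes, Psma8 and Psmc3ip were measured at low levels. Psma8, the alpha subunit of testis proteasomes, was at 1.78, 1.09, 2.25 and 1.47 CPM in vehicle replicates 1 to 4 and 2.58, 1.85, 1.97 and 1.90 with full-length NfL, with no shared windows and a change of 0.33 ± 0.25 (edgeR adjusted p = 0.341). Psmc3ip, a factor of meiotic recombination that owes its name to binding Psmc3, was at 1.43, 2.30, 1.57 and 2.33 CPM in vehicle and 1.83, 2.37, 4.16 and 3.92 with coiled-coil NfL. Its change with coiled-coil NfL, 0.68 ± 0.30 (edgeR adjusted p = 0.674), was the highest estimate of the family in that comparison and did not pass, and 27.1% of its windows occur in other genes.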
